A study of Rattus norvegicus with 25 samples.

Results

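Heat shock genes of the cytosol and the mitochondria were examined in rat gingiva. The 10 genes were taken by symbol from the table of the series, with the transcripts of a gene summed, and they are Hsf1, Hspa8, Hsph1, Hspb1, Dnaja1, Dnajb1, Hspd1, Hspe1, Hsp90aa1 and Hsp90ab1. All 10 were found among the 30547 genes of the table, and all 10 were among the 16092 genes kept by the filter on low values. The question was whether these chaperones, which respond to misfolded protein, differed in experimental periodontitis (EP) or after gels carrying zinc oxide nanoparticles (ZNPs) or curcumin (Cur).

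Gingival RNA from wild type Sprague-Dawley rats had been sequenced in 25 libraries, 5 per group, after removal of ribosomal RNA. The labels give an age of 6 weeks, the methods a later age and male sex. The sham group received hydrogel without drug. In the EP group the upper first molars on both sides were tied with silk that was smeared with Porphyromonas gingivalis, and whether these rats received drug-free hydrogel is not stated. Rats of the 3 gel groups had the same periodontitis and, for Cur gel, ZNP gel and their combination (Cur/ZNP gel), received 200 μL of curcumin hydrogel, zinc oxide nanoparticle hydrogel or a hydrogel with both agents once a week for 4 weeks. By the methods, the combined gel held less of each agent than the single gels. The labels do not say whether each library came from a separate rat, whereas the methods give 5 rats per group, so p-values measure the spread between these libraries.

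Heat shock proteins are chaperones. Hsf1 is the transcription factor that switches on their genes when unfolded protein builds up. In the cytosol, Hsp70 proteins such as Hspa8 take up unfolded chains with the help of J-domain proteins (Dnaja1, Dnajb1) and exchange factors (Hsph1), Hsp90 proteins (Hsp90aa1, Hsp90ab1) finish the folding of kinases and receptors, and the small heat shock protein Hspb1 holds damaged protein in a form that can still be refolded. In the mitochondria, Hspd1 (Hsp60) forms a folding chamber that Hspe1 (Hsp10) closes as its lid. Periodontal tissue holds keratinocytes, fibroblasts and immune cells, and stressed epithelium is known for high levels of small heat shock proteins.

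Values are reads divided by 1 size factor per library, called normalized counts below. Libraries held 50690789 to 81791804 reads, and the 10 genes took 0.134% to 0.454% of them. The lowest of their values rested on 1080 reads (Hsf1 in Sham 4), so the spread between libraries was far above counting error. Keratinocyte markers were present in all libraries, with a summed level of the 5 basal markers of at least 87974. In Sham 4, EP 3 and EP 4, a list of nasal gland genes took 21.8%, 16.6% and 20.5% of the reads, and at most 0.103% elsewhere. The summed level of 11 skeletal muscle markers was 27111 to 468875 in sham and 426494 to 2183182 in EP. In bulk tissue, fewer cells of a type and less RNA per cell cannot be told apart.

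The promoters of Hspd1, Hspe1, Hspa8 and Hsph1 are shown because they match the binding motif of heat shock factor before the start. Whether the motif bears on how the genes moved together or apart was not tested. The motif searched was GAANNTTCNNGAA, 3 inverted GAA units with 2 free bases between them, on both strands. RefSeq windows (GRCr8), from 250 bases before to 50 after the start of the gene, were found for 8 of the 10 genes. Hsf1 and Hsp90aa1 had no window. Of 33469 windows in all, 0.798% held the motif, compared with 5 of these 8 genes (Hspa8, Hsph1, Dnaja1, Hspd1 and Hspe1). Hspb1, Dnajb1 and Hsp90ab1 held no match in their windows, which says only that these letters are not there. The CCAAT box, a common promoter motif, was in 4 of the 8 windows (Hspa8, Hsph1, Dnajb1, Hsp90ab1) and in 37.5% of all windows on either strand.

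Hspd1 and Hspe1 lie head to head and share their promoter. In the reference, the starts of both genes are 290 bases apart, and the matches in both windows are the same bases, made of 2 overlapping matches that span 18 bases. The nearest base of this element lies 48 bases before the start of Hspe1 and 225 bases before that of Hspd1. The stretch between both starts (chr9:64084038-64084326, + strand, GRCr8) is printed in the direction of Hspe1, with the element in capitals:
Hspd1 and Hspe1: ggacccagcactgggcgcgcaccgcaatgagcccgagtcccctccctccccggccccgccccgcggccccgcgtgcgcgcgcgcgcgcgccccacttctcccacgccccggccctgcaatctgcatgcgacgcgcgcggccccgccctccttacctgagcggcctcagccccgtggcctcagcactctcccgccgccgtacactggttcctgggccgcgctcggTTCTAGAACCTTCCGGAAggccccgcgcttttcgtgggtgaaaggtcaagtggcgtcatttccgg

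The last 60 bases before the starts of Hspa8 (chr8:50080454-50080513, + strand, GRCr8) and Hsph1 (chr12:10427308-10427367, + strand, GRCr8) hold a match each, whose first base lies 55 bases before the start of Hspa8 and 36 before that of Hsph1. Matches are in capitals:
Hspa8: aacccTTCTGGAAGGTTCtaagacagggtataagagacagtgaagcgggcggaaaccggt
Hsph1: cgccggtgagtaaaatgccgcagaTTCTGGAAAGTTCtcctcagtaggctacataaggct
A further match in Hspa8 began 213 bases before the start, outside the stretch printed. The match in Dnaja1 began at base 10 after the start.

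EP was compared with sham to ask whether heat shock genes differed in periodontitis. None of the 10 was called higher in EP, Hsf1 and Hspe1 fell, and the other 8 did not pass the test. Here and below the test was limma on log2(normalized count + 1) over all 16092 genes, with Benjamini-Hochberg adjustment and a threshold of 0.05. Of all genes tested, 18.8% were called higher and 18.8% lower in EP, against 0 and 2 of the 10. The median log2 fold change of the 10 was -0.28, beside 0.01 for all genes tested, and 9 of the 10 were below 0. DESeq2 called 3 of the 10 and edgeR 2, and 3 had an unadjusted p under 0.05 in limma.

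Hsf1 (chr7:117538523-117565478, + strand, Rnor_6.0) had normalized counts of 3279.7, 2880.3, 3775, 2195 and 2657 in the 5 sham libraries. In EP it had 2248, 2438, 1848, 2208 and 2377. The sham libraries other than Sham 4 therefore lay above all EP libraries, and Sham 4 lay below 4 of them. Hsf1 fell by 23.9% (log2 fold change -0.39 ± 0.12 SE, adjusted p = 0.0155, limma). Without Sham 3, the highest library, the change was -0.30 with an adjusted p of 0.0587, and in a fit of sham and EP alone the adjusted p was 0.0899. Hsf1 fell as well in Cur/ZNP gel against sham (log2 fold change -0.41 ± 0.12 SE, adjusted p = 0.0123, limma). In Cur gel and ZNP gel it stood at 2522 ± 331 and 2559 ± 142 (SD, n = 5), between the means of EP (2224 ± 230.1) and sham (2957 ± 602). Basal keratinocyte markers lay lower in EP as well: their summed level had a median of 809116 in sham and 194968 in EP, the median log2 fold change of the 5 markers was -1.29, and 2 of the 5 were called lower. The sham libraries had the same order for this sum (1655953, 835556, 809116, 670010.5 and 87974 in Sham 3, 1, 2, 5 and 4) as for Hsf1. Differentiated keratinocyte markers were mixed. Their summed level had a median of 704586 in sham and 270381 in EP. Of these 7 markers 2 were called higher and 0 lower in EP, with a median log2 fold change of -0.21. The part of keratinocytes in the level of Hsf1 was not tested.

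Hspe1 (chr9:61692154-61694599, + strand, Rnor_6.0) had 4213, 2262, 5406, 3002 and 2412 normalized counts in sham. In EP it had 2836, 2246, 1927, 1954 and 2674. Sham 1 and Sham 3 stood far above the rest, and the other 3 sham libraries lay within or close to the range of EP. Hspe1 fell by 29.7% (log2 fold change -0.51 ± 0.19 SE, adjusted p = 0.0438, limma). The call was lost without Sham 1 (adjusted p = 0.125), Sham 3 (0.161), EP 2 (0.0769), EP 3 (0.102) or EP 4 (0.0966), and the adjusted p was 0.237 without Sham 4, EP 3 and EP 4. It was also lost with no filter (0.0611) and in a fit of sham and EP alone (0.155). Sham 1, Sham 3 and Sham 4 also held the highest summed level of 10 autonomic neuron markers among sham libraries (71101, 159184 and 56532, beside 1151 in Sham 2 and 689 in Sham 5), and no EP library was above 448. Among gel libraries, Cur/ZNP gel 2 had a sum of 49758, and the next highest was Cur gel 3 (2515). Hspe1 was at 2202 in Cur/ZNP gel 2, the lowest value of its group. The part of nerve tissue in the level of Hspe1 was not tested.

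**Figure D1:**
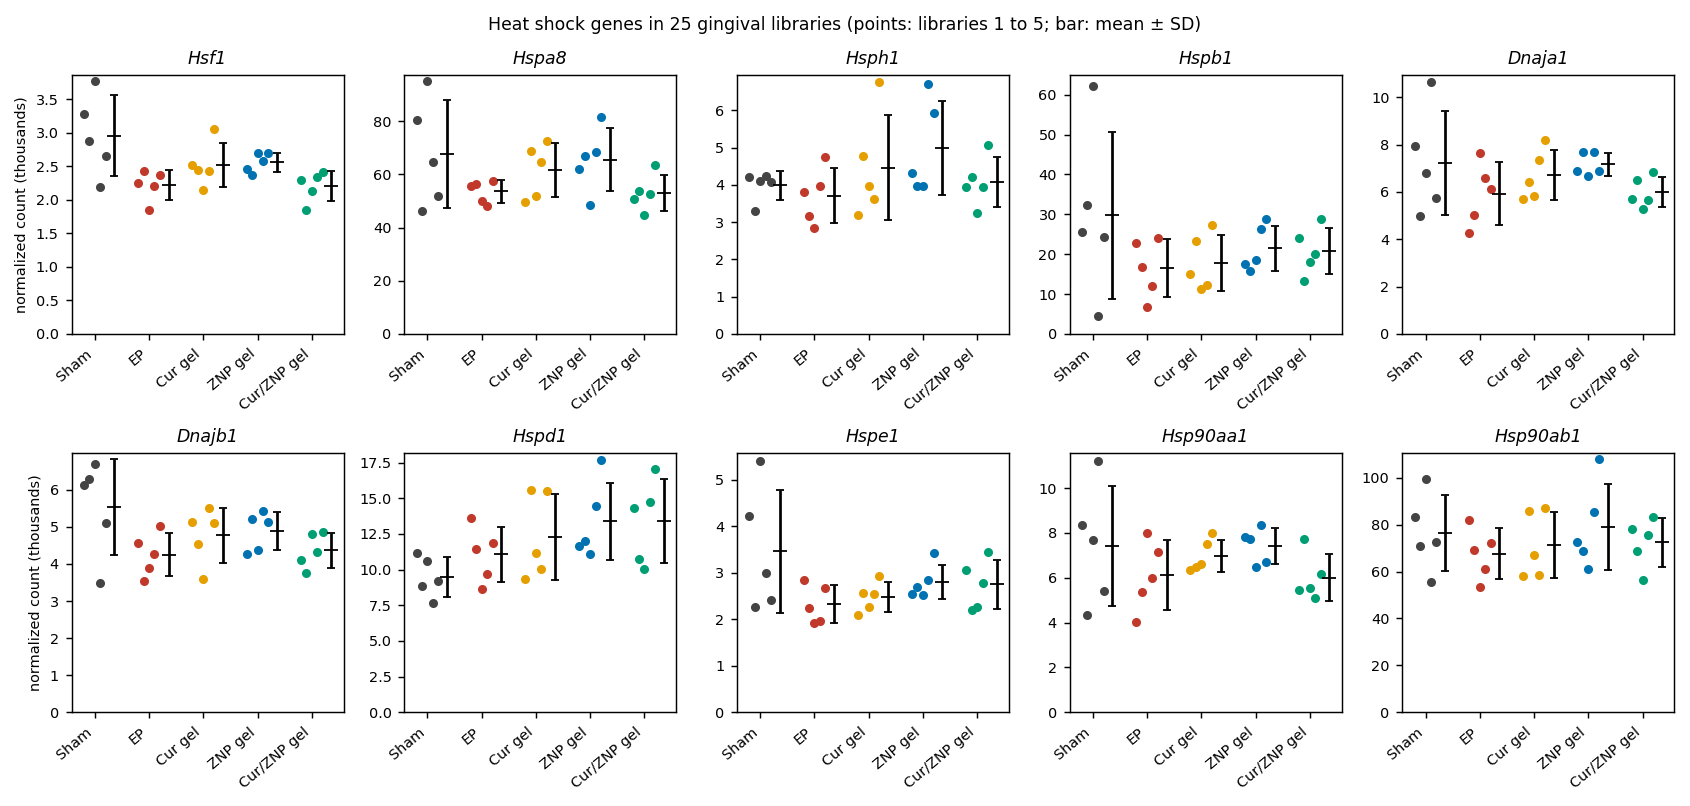
Normalized counts (linear axis from 0) of each of the 10 heat shock genes in the 25 libraries, with points in the order of the libraries 1 to 5 in each group and a bar for the mean ± SD (n = 5). Sham has the largest SD of the 5 groups for Hsf1, Hspa8, Hspb1, Dnaja1, Dnajb1, Hspe1 and Hsp90aa1, and Hspd1 has its lowest group mean in sham.

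Hspd1 (chr9:61680530-61690956, - strand, Rnor_6.0) went the other way. It had 11138, 8880.2, 10637, 7659 and 9181 normalized counts in sham. It had 13600.2, 11416, 8672, 9720.3 and 11896 in EP, which did not pass the test against sham (log2 fold change 0.21 ± 0.18 SE, adjusted p = 0.363, limma). In ZNP gel it had 11658, 12011, 11106, 14428 and 17688, of which only 11106 lay below the highest sham library, and it rose (log2 fold change 0.48 ± 0.18 SE, adjusted p = 0.0445, limma). In Cur/ZNP gel it had 14329, 10744, 10071, 14765 and 17091, and it rose likewise (0.48 ± 0.18 SE, adjusted p = 0.0390). Without Sham 4, EP 3 and EP 4 both calls were lost, at 0.41 and an adjusted p of 0.0985 for ZNP gel and 0.41 and 0.0903 for Cur/ZNP gel. Both were also lost with no filter (0.0613 and 0.0533) and in fits of the 2 groups alone (0.0751 and 0.0715). In Cur gel, with 12315 ± 3014 (SD, n = 5), it did not pass (0.35 ± 0.18 SE, adjusted p = 0.126). Whether the 3 gels differ in this respect is answered by their direct comparison below, where Hspd1 passed in none.

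Both calls of Hspd1 lay close to the threshold, and leaving out 1 library often ended them while the size of the difference moved less. The call in ZNP gel was lost without Sham 2 (adjusted p = 0.0657), Sham 3 (0.0524), Sham 4 (0.105), Sham 5 (0.0636), ZNP gel 2 (0.0501), ZNP gel 4 (0.0922) or ZNP gel 5 (0.130), with log2 fold changes of 0.38 (without ZNP gel 5) to 0.53 (without Sham 3) in these fits. The call in Cur/ZNP gel was lost without Sham 2 (0.0606), Sham 4 (0.0965), Sham 5 (0.0588), Cur/ZNP gel 1 (0.0790), Cur/ZNP gel 4 (0.0829) or Cur/ZNP gel 5 (0.117), with log2 fold changes of 0.39 (without Cur/ZNP gel 5) to 0.47 (without Sham 5). The summed muscle markers ranged from 403232 to 3624467 in ZNP gel and from 399489 to 3164664 with the combined gel. ZNP gel 5 and Cur/ZNP gel 5, the libraries with the most Hspd1, also had the highest summed muscle markers of their groups. In Cur gel 1 and Cur gel 4, where the muscle markers summed to only 71187 and 9809, Hspd1 was at 9348 and 10010.3, the lowest values of that group. The part of muscle in the level of Hspd1 was not tested.

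Hspd1 and Hspe1 were then set against each other within each library, a ratio that no scaling of the libraries can change. The ratio was 2.98 ± 0.85 in sham (SD, n = 5), with 2.64, 3.92, 1.97, 2.55 and 3.81 in the single libraries. It was 4.76 ± 0.28 in EP, with 4.80, 5.08, 4.50, 4.97 and 4.45. The gels stood at 4.93 ± 0.81 (Cur), 4.73 ± 0.36 (ZNP) and 4.85 ± 0.32 (Cur/ZNP). All sham libraries lay below all 20 libraries with periodontitis, although the gap between Sham 2 (3.92) and Cur gel 4 (3.95) was small. The ratio was 1.65-fold higher in EP than in sham (exact permutation test over libraries, two-sided p = 0.00794, the smallest that 5 against 5 can give, adjusted p = 0.0397 over 20 tests of 2 ratios). The differences of the gels from sham (1.69-fold for Cur, 1.64-fold for ZNP and 1.68-fold for Cur/ZNP) had the same p.

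The ratio was chosen after the levels had been seen, so its p-values describe a pattern and do not test it anew. None of the gels differed from EP in the ratio (folds of 0.993 to 1.03, exact p from 0.643 to 0.897). As sham and EP did not overlap, leaving out any 1 library could only keep them apart. The exact permutation p was then 0.0159, the smallest that 5 against 4 can give, and it adds no support. Without Sham 4, EP 3 and EP 4 the difference was 0.68 on the log2 scale, where 4 against 3 libraries cannot give an exact p below 0.0571. Genes with a short span in the genome tended to lie lower in EP. The median log2 fold change was -0.18 for 2032 genes under 3000 bases, -0.15 for 3306 genes of 3000 to 10000 bases, -0.04 for 4800 genes of 10000 to 30000 bases and 0.21 for 5866 longer genes. Hspe1 spans 2445 bases and Hspd1 10426, and the part of span in the ratio was not tested. The Hsp90aa1 to Hsp90ab1 ratio was 0.103 ± 0.0567 in sham and 0.0947 ± 0.0368 in EP (exact permutation p = 0.841).

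**Figure D2:**
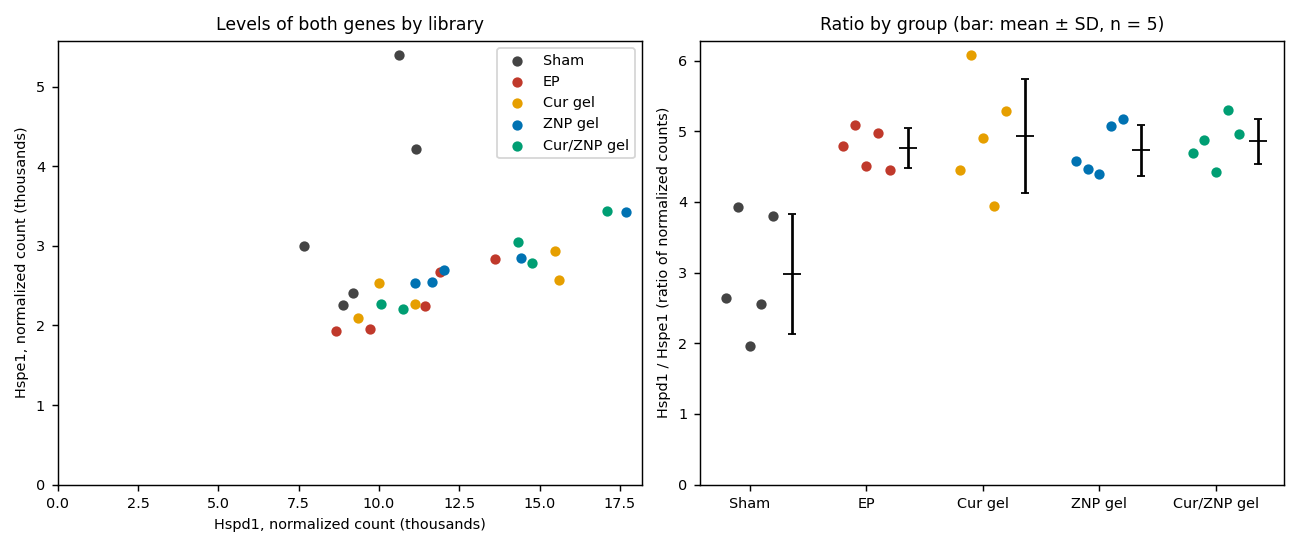
Left, normalized counts of Hspd1 and Hspe1 in each of the 25 libraries, coloured by group. Right, their ratio in each library by group with the mean ± SD (n = 5), which is 1.97 to 3.92 in sham and 3.95 to 6.08 in the 20 other libraries.

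The cytosolic Hsp70 machine did not pass the test between EP and sham. Hspa8 (chr8:44990014-44993179, + strand, Rnor_6.0), the constitutive Hsp70, had 80414, 46044, 95022, 64774 and 51814 normalized counts in sham and 55737, 56378, 50112, 48029 and 57589.9 in EP. Both groups overlapped, and sham spread far more widely than EP (SD 20236 and 4225). The log2 fold change was -0.29 ± 0.18 SE (adjusted p = 0.207, limma). Hsph1 (chr12:6322668-6341902, - strand), the exchange factor, had 3985 ± 387 in sham and 3709 ± 735 in EP (-0.12 ± 0.19 SE, adjusted p = 0.639). Dnaja1 (chr5:57028467-57039378, + strand) had 7226 ± 2216 in sham and 5933 ± 1329 in EP (-0.26 ± 0.17 SE, adjusted p = 0.233).

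Dnajb1 (chr19:24747178-24750919, + strand), a heat-inducible J-domain partner of Hsp70, had 6122, 6295, 6689.8, 3474 and 5112 normalized counts in sham. In EP it had 4559.95, 3540.03, 3889.8, 4261 and 5016. The other sham libraries were above all EP libraries, and Sham 4 was below them all. The difference missed the threshold with all libraries (-0.35 ± 0.15 SE, adjusted p = 0.0719, limma). It passed without Sham 4 (-0.51, adjusted p = 0.00439), without EP 5 (-0.42, 0.0477), without Sham 4, EP 3 and EP 4 (-0.48, 0.0264) and in DESeq2 (-0.37, 0.0449), each time lower in EP.

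Hspb1 (chr12:23839399-23841049, - strand), the small heat shock protein, was the most variable of the 10, with a 13.9-fold range over the 25 libraries. In sham it had 25470.1, 32447, 62154, 4486 and 24232 normalized counts, and in EP 22823, 16841, 6799, 11902 and 23986. Sham 4, EP 3 and EP 4, the libraries rich in nasal gland genes, held 3 of the 4 lowest values of the series. The log2 fold change was -0.58 ± 0.48 SE (adjusted p = 0.355, limma). Without Sham 4 it was -1.16 with an adjusted p of 0.0163, and without Sham 4, EP 3 and EP 4 it was -0.67 with an adjusted p of 0.153.

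The Hsp90 pair overlapped between EP and sham. Hsp90aa1 (chr6:135107271-135112775, - strand), the stress-inducible form, had 7406 ± 2677 normalized counts in sham and 6107 ± 1557 in EP (log2 fold change -0.24 ± 0.20 SE, adjusted p = 0.364, limma). Hsp90ab1 (chr9:17817721-17823243, + strand), the constitutive form, had 76440.2 ± 16290.3 in sham and 67579 ± 10873 in EP (-0.17 ± 0.18 SE, adjusted p = 0.488). Hsp90aa1 was highest in Sham 4 (11212) and lowest in EP 1 (4013), while Hsp90ab1 was lowest in EP 3 (53598). Copies of these genes elsewhere in the genome can share their reads. RefSeq lists 33 pseudogenes named after Hspa8, 23 after Hsp90ab1, 20 after Hspd1, 16 after Hsp90aa1, 4 after Dnaja1 and 1 after Hspe1, so the levels of these 6 genes are uncertain to that extent.

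Each gel was compared with EP to ask whether nanoparticles or curcumin moved the heat shock genes in diseased gingiva. After adjustment, 0 of the 10 genes passed in any of the 3 comparisons, in limma, edgeR or DESeq2. In limma 0%, 0.00621% and 0% of all genes were called for Cur, ZNP and Cur/ZNP, in that order, which is 0, 1 and 0 genes of 16092. Of all genes edgeR called 0 in each, whereas DESeq2 called 9 higher and 70 lower for Cur, 4 higher and 57 lower for ZNP and 81 higher and 121 lower for Cur/ZNP. At an unadjusted p under 0.05 there were 0, 1 and 0 of the 10. All 10 lay above EP in ZNP gel, with log2 fold changes of 0.20 to 0.48 and a median of 0.28, beside 0.0056 for all genes. All 10 lay above EP in Cur gel too, with 0.07 to 0.24 and a median of 0.17, beside -0.011 for all genes. In Cur/ZNP gel 7 lay above EP and 3 below, with -0.02 to 0.43 and a median of 0.07, beside -0.0049 for all genes. These comparisons share the EP libraries, so a low EP library moves them all. Many of the 10 genes also moved together between libraries (below), so they are not 10 separate observations.

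Hsph1 was the gene nearest to a difference. It had 3820.2, 3175, 2852, 3957 and 4742 normalized counts in EP and 4311, 3982, 3975, 6721 and 5919.5 in ZNP gel. The means were 3709 and 4982, and ZNP gel 4 and ZNP gel 5 stood above all EP libraries. The log2 fold change was 0.41 ± 0.19 SE (unadjusted p = 0.0388, adjusted p = 1, limma). Hspa8 was 1.21-fold higher in ZNP gel than in EP with a 95% interval of 0.938 to 1.56. For Hsf1 the fold was 1.15 (0.968 to 1.38), for Dnaja1 1.23 (0.962 to 1.57), for Dnajb1 1.15 (0.925 to 1.43) and for Hsp90aa1 1.24 (0.928 to 1.66). For Hspd1 it was 1.21 (0.930 to 1.56), for Hspe1 1.21 (0.918 to 1.61) and for Hsp90ab1 1.16 (0.894 to 1.51). Including Hsph1 (1.33, 1.02 to 1.74), the intervals of these 9 genes ended at 1.74 or below. Hspb1 was left wide, at 1.39 with an interval of 0.698 to 2.78.

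**Figure D3:**
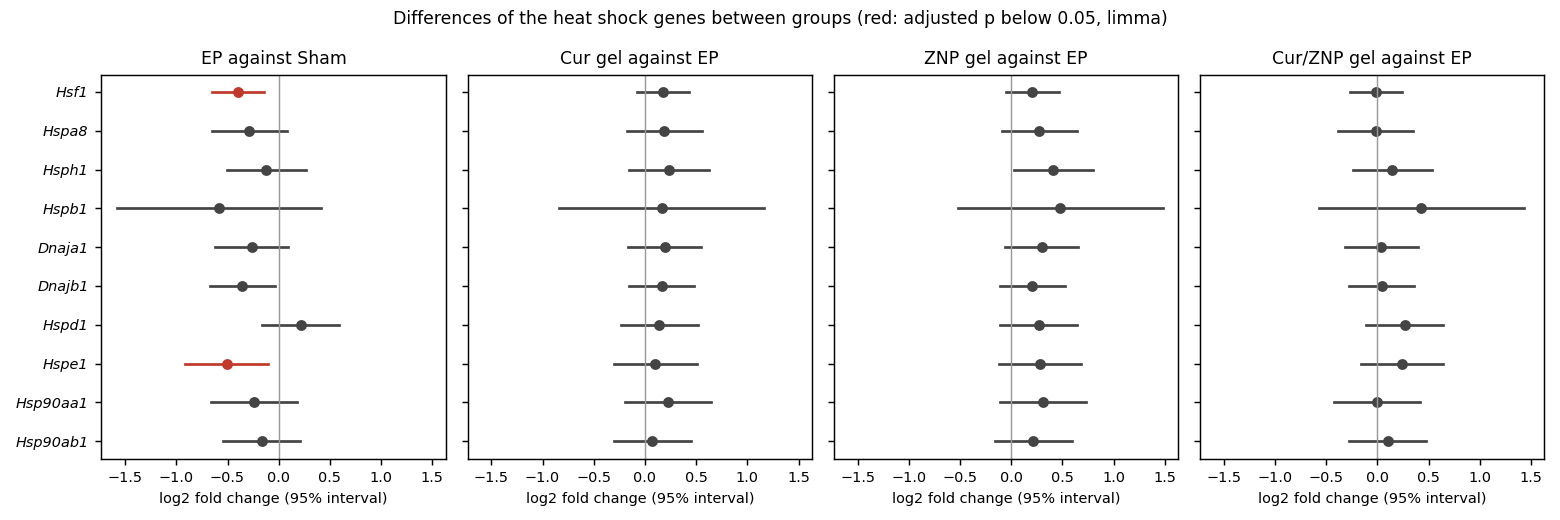
Log2 fold changes (points) with 95% intervals (lines) of the 10 genes for EP against sham and for each gel against EP. Red marks an adjusted p below 0.05 in limma, which only Hsf1 and Hspe1 reach, both in EP against sham.

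The gels were also compared with each other. In ZNP gel against Cur gel, Cur/ZNP gel against Cur gel and Cur/ZNP gel against ZNP gel, 0 of the 10 genes passed in limma, edgeR or DESeq2, and 0 had an unadjusted p under 0.05. The share of all genes called in limma was 0% in each, and edgeR called 0. DESeq2 called 0 genes higher and 7 lower, 2 higher and 4 lower, and 18 higher and 4 lower, in that order. The 10 genes lay 0.00 to 0.31 below ZNP gel in the combined gel on the log2 scale, with a median of -0.19. Hsf1 was 0.858-fold the level of ZNP gel in Cur/ZNP gel (95% interval 0.720 to 1.02), Hspa8 0.817-fold (0.633 to 1.05) and Hspd1 0.997-fold (0.769 to 1.29).

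Gels were also set against sham, and the share of all genes called is given beside each count. Whether the 10 were called less often than other genes cannot be told from so few genes, many of which moved together. In Cur gel 0 of the 10 passed in limma (1 at an unadjusted p under 0.05, 0 in edgeR, and Hspe1 in DESeq2), while 18.9% of all genes were higher and 19.1% lower. In ZNP gel only Hspd1 passed, higher, while 16.7% of all genes were higher and 15.4% lower. In Cur/ZNP gel Hspd1 was higher and Hsf1 lower, while 20.2% of all genes were higher and 19.5% lower. Without Sham 4, Hsf1, Dnajb1 and Hspb1 were called lower in Cur gel (adjusted p = 0.0349, 0.0376 and 0.0355, limma), and Dnajb1 was called lower in Cur/ZNP gel (0.00786).

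Levels of the 10 genes were ordered by group mean. EP had the lowest mean for 6 genes, Cur/ZNP gel for 3 (Hsf1, Hspa8 and Hsp90aa1) and sham for 1 (Hspd1). Sham had the highest mean for 6 genes, ZNP gel for 3 (Hsph1, Hsp90aa1 and Hsp90ab1) and Cur/ZNP gel for Hspd1. Of the 40 pairs of neighbours in these orders, all 40 had a 95% interval of the difference (limma) that included 0. The highest group mean was 1.17 (Hsp90ab1) to 1.81 (Hspb1) times the lowest. Levels are not compared between genes, since the lengths in the table are spans in the genome and not transcript lengths.

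How the 10 genes moved together from library to library was examined after the mean of each group was taken out. Pearson's r over the 25 libraries was computed for the 45 pairs, with 100000 permutations within groups and adjustment over the pairs. It ran from -0.50 to 0.93 with a median of 0.41, and 19 pairs passed at an adjusted p under 0.05. The closest pair was Hspd1 with Hsp90ab1 (r = 0.93, Spearman rho = 0.94, permutation p = 1e-05 for both, the smallest these permutations can give, adjusted p = 0.00015 and 0.000225). It held without the 2 libraries farthest out on Hspd1, ZNP gel 5 and Cur/ZNP gel 5 (r = 0.93). Next came Dnaja1 with Hsp90aa1 (r = 0.91, rho = 0.86, adjusted permutation p = 0.00015 and 0.000225), which held without Sham 4 and EP 3 (r = 0.87). Hspa8 moved with Hspe1 (r = 0.87, rho = 0.86, adjusted permutation p = 0.00015 and 0.000225), and r was 0.80 without Sham 2 and Sham 3. Hsf1 moved with Hspb1 (r = 0.86, rho = 0.76, adjusted permutation p = 0.000225 and 0.000506), and r was 0.75 without Sham 3 and Sham 4.

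Hspd1 and Hspe1, which share a promoter, were less close to each other than Hspd1 was to Hsp90ab1 in size of r (r = 0.72, rho = 0.77, adjusted permutation p = 0.000225 for both), and the difference between these correlations was not tested. Without ZNP gel 5 and Cur/ZNP gel 5, r was 0.67. Dnaja1 and Hsp90aa1 passed with no other member over the 25 libraries. Without Sham 4, EP 3 and EP 4, Dnaja1 passed also with Hspa8 (r = 0.71, adjusted permutation p = 0.00498) and Hsph1 (r = 0.59, 0.00976), and Hsp90aa1 with Hspa8 (r = 0.61, 0.0424). The Hsp90 pair itself had r = -0.20 (rho = -0.10, permutation p = 0.399 and 0.680), and Hspb1 with Dnaja1 had r = -0.50 (rho = -0.22, permutation p = 0.0898 and 0.370). Negative values were seen in 10 pairs and rested on the libraries rich in nasal gland genes: without Sham 4, EP 3 and EP 4 all 45 pairs were above 0, from 0.05 to 0.92, and 22 passed. Hspb1 with Dnaja1 then had r = 0.22. Members are measured in the same libraries and share their depth and tissue makeup.

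**Figure D4:**
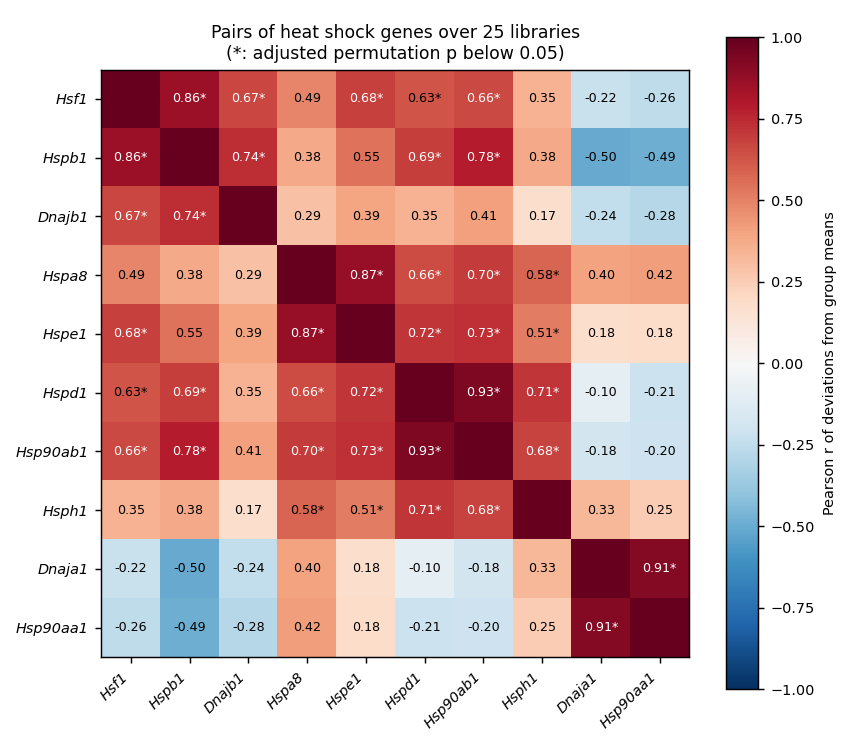
Pearson's r of deviations from group means (log2 scale) for the 45 pairs of heat shock genes over 25 libraries, with an asterisk where the adjusted permutation p is below 0.05. Hspd1 and Hsp90ab1 (0.93) and Dnaja1 and Hsp90aa1 (0.91) have the highest values, and negative values (to -0.50) are confined to pairs with Dnaja1 or Hsp90aa1.

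Over the 25 libraries, groups included, the genes most like each member were sought among 14694 others with a mean of at least 100 normalized counts. These correlations are descriptions with no test. Hspe1 was most like Cct8 (r = 0.94), a subunit of the cytosolic folding chamber TRiC, then Bod1 and Ndufaf2. Hsph1 was most like Chordc1 (0.85), a co-chaperone of Hsp90, then Slc25a25 (0.79) and Stip1 (0.76), which links Hsp70 to Hsp90. Close to Hspa8 was Ahsa1 (0.89), which activates the ATPase of Hsp90, after AABR07048992.1 and LOC688932, which the table describes as similar to heat shock protein 8. Hspd1 was most like Map2k3 (0.95), Acaa2 (0.95), an enzyme of mitochondrial fatty acid oxidation, and Hsdl2 (0.94). Among the genes most like Hspb1 were Lmna (0.92), which encodes lamin A/C, and Cltb (0.92). Hsp90ab1 was most like Bzw2 (0.91), Ywhag (0.90) and G3bp1 (0.90). For Hsp90aa1 and Dnaja1 the first gene was LOC680491 (0.89 and 0.79), described as similar to heat shock protein 1, alpha, and both also had Gpbp1 (0.78 and 0.79). Hsp90aa1 was also near Eif1a (0.77), and Dnaja1 near Zbtb2 (0.79). Hsf1 was most like Top1mt (0.86), Zbtb17 (0.85) and Sox15 (0.84), and Dnajb1 like Smagp (0.86), Fut1 (0.86) and Tfap2a (0.86).

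The other chaperone and stress genes were read from 9 lists with 106 entries, of which 105 were in the table (Hspa1a was not found) and 103 were tested. In EP against sham 17 were higher and 29 lower, which is 16.5% and 28.2% of those tested, beside 18.8% and 18.8% of all genes. The lists were chosen with earlier results of these data known.

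The cytosolic folding chamber was the most one-sided list. Of 14 subunits of TRiC and of prefoldin, which hands it new chains, 11 fell in EP and 0 rose, with a median log2 fold change of -0.38 beside 0.01 for all genes. Pfdn4 had 1936 ± 687 normalized counts in sham and 994 ± 238 in EP, and it fell (log2 fold change of -0.92 with an SE of 0.19, adjusted p = 0.00128, limma). Pfdn1 (-0.76, 0.00369) and Pfdn5 (-0.67, 0.00488) fell too. The count was 6 without Sham 1, 5 without Sham 3 and 2 without Sham 4, EP 3 and EP 4, and 1 in a fit of sham and EP alone. The 10 proliferation markers summed to 15903 to 28943 in sham and to 6290 to 10365 in EP, with no overlap, and 9 of the 10 were lower. Their part in the fall of the chaperone subunits was not tested.

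Partners of Hsp70 and Hsp90 were mixed. Among 16 Hsp70 proteins and exchange factors 1 rose and 2 fell: Bag4, an exchange factor, rose (log2 fold change 1.39 ± 0.26 SE, adjusted p = 0.000618, limma), and Hspbp1 (-0.49, 0.00326) and Hspa14 (-0.35, 0.00816) fell. Among 15 J-domain proteins 3 rose and 4 fell. Dnajc9, which also guards histones, fell from 3210.3 ± 689.6 to 1838 ± 249.97 normalized counts, with no overlap (-0.79 ± 0.12 SE, adjusted p = 0.000175), and Dnajc8 (-0.51, 0.000868) and Dnajc7 (-0.48, 0.00172) fell too. Among 16 Hsp90 co-chaperones 2 rose and 6 fell. Ptges3 (p23), which stabilises closed Hsp90, fell with no overlap (-0.73 ± 0.13 SE, adjusted p = 0.000323). Ppid (-0.58, 0.0018) fell and Cdc37l1 (0.59, 0.00433) rose. The 6 falls became 3 without EP 2 or without Sham 3, and 2 in a fit of sham and EP alone.

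Among small heat shock proteins and in the mitochondrial list more genes rose than fell, beside 18.8% of all genes called in each direction. Hspb6 and Hspb7, which are abundant in muscle, rose (log2 fold changes 2.23 ± 0.76 SE and 2.27 ± 0.81 SE, adjusted p = 0.025 and 0.0319, limma), the only calls among 7 genes of that list. The calls numbered 0 without EP 1, EP 2 or Sham 4. They stand beside the muscle markers, of which 8 of 11 rose, and the part of muscle was not tested. Among 15 mitochondrial chaperones and proteases 5 rose and 2 fell. Hspa9 (mortalin), the Hsp70 of mitochondria, rose from 7818 ± 669 to 14486 ± 2549 normalized counts, with no overlap (0.88 ± 0.22 SE, adjusted p = 0.00442). Yme1l1, a protease of the inner membrane, rose (0.81, 0.00391), and Hscb, a J-domain protein for iron-sulfur clusters, fell with no overlap (-0.99 ± 0.17 SE, adjusted p = 0.000356). In the mitochondrial list there were 2 rises and 2 falls without Sham 4, EP 3 and EP 4, and 3 rises and 1 fall without EP 1.

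**Figure D5:**
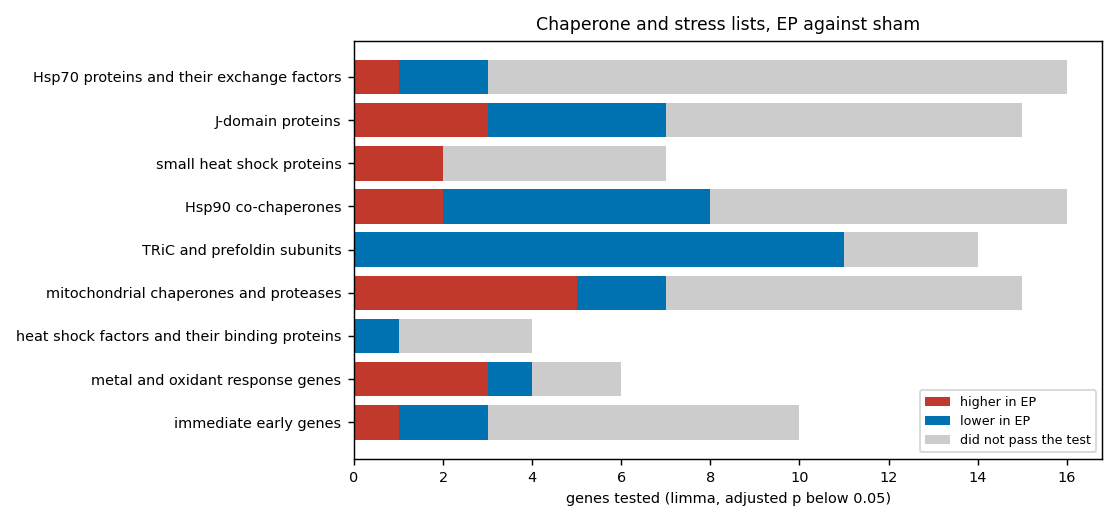
Number of genes tested in each of the 9 chaperone and stress lists, split into higher in EP (red), lower in EP (blue) and not past the test (grey; limma, adjusted p below 0.05, EP against sham). TRiC and prefoldin have 11 lower of 14, and the mitochondrial list has 5 higher and 2 lower of 15.

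Of 4 heat shock factors and binding proteins tested, Hsbp1, a binding protein that restrains heat shock factor, fell (log2 fold change -0.43 ± 0.15 SE, adjusted p = 0.0315, limma). That call was lost without Sham 4, EP 3 and EP 4 together, and without any 1 of Sham 1, Sham 3, Sham 4, EP 2, EP 4 or EP 5. Metal and oxidant response genes bear on zinc. In EP against sham Mtf1, the zinc sensor (0.81, 0.00555), and Slc30a1, the zinc exporter it controls (0.92, 0.00838), rose, and the metallothionein Mt2A fell (-1.20, 0.0134). Hmox1, a heme-degrading enzyme of the oxidant response, rose as well (0.80, 0.0155), so that 3 of the 6 rose. In a fit of sham and EP alone 0 of the 6 were called, and without Sham 4, EP 3 and EP 4 there were 1 rise and 1 fall. Mt2A lost its call without Sham 3. In ZNP gel against EP none of the 6 passed. Mt2A was at 3495 ± 1365 in EP and 3953 ± 1047 in ZNP gel (0.23 ± 0.36 SE, adjusted p = 1), and Slc30a1 at 1867 ± 187 and 1713 ± 189 (-0.13 ± 0.26 SE, adjusted p = 1). Among 10 immediate early genes Dusp1, a phosphatase of stress kinases, rose with no overlap (0.80 ± 0.18 SE, adjusted p = 0.00199), and Ier2 (-0.59, 0.00124) and Ier3 (-0.68, 0.0424) fell. Of these falls, 1 was left without EP 2, EP 3, EP 4, EP 5, Sham 1, Sham 2, Sham 3 or Sham 5, each left out in turn.

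In the 6 comparisons without sham, 0 of the 103 genes passed in limma. At an unadjusted p under 0.05 there were 6, 9 and 7 for Cur, ZNP and Cur/ZNP against EP, and 5, 7 and 1 for ZNP against Cur, Cur/ZNP against Cur and Cur/ZNP against ZNP. Of all 16092 genes, 284, 481 and 2054 had such a p against EP, and 183, 1780.0 and 818 between gels. edgeR called 0 in each, and DESeq2 called 3 in Cur gel against EP and 1 in ZNP gel against Cur gel, beside its calls over all genes given above.

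The inducible Hsp70, the usual gauge of protein damage, was read from Hspa1b and LOC108348108, described in the table as heat shock 70 kDa protein 1A. They are near-identical copies, so the split between them is uncertain and their sum is given. These genes were named after their values were seen. The sum was 15163, 19764, 19832, 3693 and 15606 normalized counts in sham, with Sham 4 far below the others. It was 14034, 9728, 6038, 9378 and 15822 in EP and 12268, 11604, 12169, 17599.9 and 18499.9 in ZNP gel. Hspa1b did not pass in EP against sham (log2 fold change -0.39 ± 0.36 SE, adjusted p = 0.410, limma) or in any gel against EP, with 0.61 ± 0.36 SE in Cur gel (adjusted p = 1), 0.43 ± 0.36 SE in ZNP gel (1) and 0.48 ± 0.36 SE in Cur/ZNP gel (0.608). The highest sum of the series was in Cur gel 5 (23311), the library that also had the most Hsph1 (6766).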

How the data were processed

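Gene expression in gingiva was measured by RNA sequencing in 25 libraries. Per the labels, TRIzol was used for RNA and a stranded kit with ribosomal depletion for the libraries. The values the authors deposited are a signal, reads of each Ensembl transcript scaled by 1 DESeq2 size factor per library (Rnor_6.0), and each column held whole multiples of 1 step for 100% of its values (within 0.01), so whole reads could be given back. The aligner and counter are not given in the sources used here. The submitters' processing notes name DESeq2 and Rnor_6.0. Scaling per library leaves ratios of genes within a library untouched, while an error in a size factor would shift all genes of that library. The size factors equalled medians of ratios over transcripts with reads in all libraries.

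The table held 41078 transcripts, summed to 30547 genes. A gene was kept where its CPM reached 2 in 1 library or more (16092 genes). The log2(normalized count + 1) values were fitted with limma 3.58.1 (R 4.3.3; variance trend, robust) in 1 model of all 25 libraries, two-sided, with Benjamini-Hochberg adjustment and a threshold of 0.05. As the values carry size factors, edgeR 4.0.16 (TMM) and DESeq2 1.42.0 were run on the whole reads as alternatives. The fit was tested on simulated data. Ratios were compared by exact permutation of libraries, and relations by 100000 permutations within groups. Promoter sequences are from RefSeq (GRCr8), whose build differs from that of the table, so the table's coordinates were not used with them.

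The 10 members and all lists were chosen with earlier results of these data known. Genes named are the 10 members, up to 3 genes of each pathway list with the smallest p among those called in EP against sham or in a comparison without sham, and the 3 genes most like each member, of which 1 is not reported here. Hmox1, the inducible Hsp70 pair, the copies of Hspa8 and Hsp90aa1 and the ratios were named after the values were seen. Of the list genes, Hspa1a, Myh1, Myh2, Atp2a1, Flg, Obp3, Col1a2 and Pecam1 were not found. Alternatives were edgeR, DESeq2, TMM scaling, no filter, filterByExpr, a pseudocount of 0.5, the 2 groups alone, a replicate block, the top transcript, no nasal gland rich libraries, each library left out and, chosen after seeing the data, near copies added to their gene.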

Additional observations from a re-analysis of the deposited data

Results flagged for a closer look

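Among the 5 libraries of each group, values that stood apart from the others of their group were sought for the 10 genes and the Hspd1 to Hspe1 ratio, in 55 groups of values. Hsph1 in Sham 2 stood apart at 3303.5 normalized counts, where the gap to the next library was 0.834 of the range of the group, above the critical value of 0.71. The other sham libraries had 4073 to 4226. Chance flags about 1 in 20 groups, and 1 of 55 was seen.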

How the results depend on the processing

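Of 2100 values of single members under the alternatives, 2040 kept their side of the threshold and moved by at most 1 SE, 31 lost and 17 gained a call, 12 moved by more than 1 SE, and no called value changed sign; 85 values without a call took the other sign. TMM scaling moved the median of all genes by at most 0.02. In EP against sham, 2 members were called; the count was 1 with no filter, 0 in a fit of the 2 groups alone, 1 with the replicate block and 0 to 4 with each library left out. In Cur gel against sham, 0 were called, 1 in DESeq2, 3 without the nasal gland rich libraries and 0 to 3 with each library left out. In ZNP gel against sham, 1 was called, and 0 with no filter, in a fit of the 2 groups alone or without the nasal gland rich libraries, and 0 to 1 with each library left out. In Cur/ZNP gel against sham, 2 were called, 1 with no filter, 0 in a fit of the 2 groups alone and 1 to 2 with each library left out, and without the nasal gland rich libraries the 2 called were Hsf1 and Dnajb1 in place of Hsf1 and Hspd1. Fewer samples estimate the spread in the fits of 2 groups, and for the other settings the cause was not tested. Calls on the pathway lists in EP against sham numbered 46, 26 in a fit of the 2 groups alone, 28 without the nasal gland rich libraries and 33 to 47 with each library left out. Pairs of members past the threshold numbered 19, and 22 without the nasal gland rich libraries. The Hspd1 to Hspe1 difference (0.72 on the log2 scale) was 0.68 without the nasal gland rich libraries (exact permutation p = 0.0571) and 0.59 to 0.83 with each library left out. In the 6 comparisons without sham, no alternative called a member.

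With the replicate block, Hspe1 in EP against sham had an adjusted p of 0.0525 and Hsf1 was still called, and the block changed no other call of a member. The replicate numbers did not pair the libraries: deviations of the 50 same-numbered pairs had r from -0.39 to 0.51 with a median of -0.01. Each gene had at least 1080 reads in each library, so counting error was small beside the spread between libraries.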

Other observations

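Rows that the table describes as copies of members had levels of their own. Of those similar to heat shock protein 8, LOC688655 rose in EP from 5454 ± 1040 to 7490.2 ± 383 normalized counts, with no overlap (a log2 fold change 0.48 ± 0.15 SE, adjusted p = 0.0144, limma), LOC680121 had 7333 ± 1264 in sham and 8898 ± 520 in EP (0.30 ± 0.14 SE, adjusted p = 0.0955), and LOC688932 had 1781 ± 444 and 1647 ± 141 (-0.08 ± 0.16 SE, adjusted p = 0.705). Hspa8 itself lay at -0.29 in the same comparison. LOC103692716, described as an alpha form of the Hsp90 protein, had 4045 ± 674 in sham and 4640.2 ± 1220 in EP (0.17 ± 0.16 SE, adjusted p = 0.411), where Hsp90aa1 lay at -0.24. Adding these rows to Hspa8 and Hsp90aa1 changed no call of the 10 genes. Which copy the reads came from cannot be told from counts per transcript. These rows were chosen by their descriptions after the values were seen.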
